A study of Mus musculus with 18 samples.

Results

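Slc4 genes encode membrane proteins that move bicarbonate, or ions related to it, and Slc4a4 is the sodium-bicarbonate cotransporter NBCe1. Expression of 7 members of this family (Slc4a2, Slc4a3, Slc4a4, Slc4a5, Slc4a7, Slc4a8 and Slc4a11) was examined in mIMCD-3 cells, an immortalised mouse inner medullary collecting duct cell line, on 18 Affymetrix Mouse Gene 1.0 ST arrays. The members were selected on results from these same arrays. The study's own short-lists, drawn from these values, name Slc4a4 in both experiments, Slc4a3 in the AGN193109 experiment and Slc4a2 in the DEAB experiment. The entry for Slc4a4 in the DEAB list may hold values of another cluster, so its listing there is uncertain. The other genes were added as relatives with the results known. Levels and differences of the members are therefore given as a description, without p-values. By gene symbol, 6 of the 7 genes had a transcript cluster (the set of probes that the array summarises into 1 value), and these 6 genes had 7 clusters among 23410 with a symbol and 35556 in all. Slc4a3 had a pair of them. Slc4a7 was not analysed here.

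In the first experiment, cells were given 1 µM AGN193109, an antagonist of the retinoic acid receptors (RARs), or 1 µM AGN193109 with 0.2 µM all-trans retinoic acid (tRA), or vehicle (ethanol and DMSO). In the second, they were given 25 µM DEAB, an inhibitor of the aldehyde dehydrogenases that make tRA, or 25 µM DEAB with 0.01 µM tRA, or vehicle. Each group had 3 arrays from independent biological experiments, and every treatment lasted 24 h in medium with serum. All groups were of 1 cell line, no group received tRA alone, and the tRA doses of the experiments differed. Levels are log2 values after Robust Multichip Average (RMA) normalisation, on which a difference of 1 is a 2-fold change in signal. They were compared only within a cluster and within an experiment. Because total RNA was measured, fewer expressing cells and less RNA per cell cannot be told apart.

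Bicarbonate transport sets the pH of tubule cells and of urine. NBCe1 is best known from the proximal tubule, where it carries sodium together with bicarbonate out of the cell across the basolateral membrane. AE2 (Slc4a2) and AE3 (Slc4a3) exchange chloride for bicarbonate without sodium, NBCe2 (Slc4a5) is the other electrogenic sodium-bicarbonate cotransporter, and the product of Slc4a8 is a sodium-driven chloride-bicarbonate exchanger. Slc4a11 belongs to the family by sequence, but its product is known for the movement of protons, ammonia and water rather than of bicarbonate. In the canonical retinoid pathway, tRA binds RARs, which sit with retinoid X receptors on paired copies of a short half-site in DNA.

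The promoters of Slc4a4, the member with the largest differences between inhibitor and vehicle, are shown first, because direct repeats of the half-site are what RARs are known to bind. RefSeq (GRCm38.p6) windows of 300 bases, from 250 bases before to 50 after a transcript start, were held for 5 of the 6 measured genes, as 7 windows. Slc4a4 had 2 windows on the plus strand, chr5:88887010-88887309 and chr5:89027716-89028015, which belong to different transcript starts. Half-sites, searched on either strand and allowing overlap in the forms AGGTCA and GGGTCA and also in the forms AGTTCA as well as GGTTCA, are in capitals, and a half-site on the minus strand reads as its reverse complement, as TGACCT does here.
Slc4a4 first window: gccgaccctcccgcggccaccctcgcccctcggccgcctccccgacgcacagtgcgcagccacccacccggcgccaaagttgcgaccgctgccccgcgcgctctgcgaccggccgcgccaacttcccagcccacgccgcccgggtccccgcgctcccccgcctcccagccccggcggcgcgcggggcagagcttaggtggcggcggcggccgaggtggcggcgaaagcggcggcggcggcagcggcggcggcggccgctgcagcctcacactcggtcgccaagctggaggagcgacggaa
Slc4a4 second window: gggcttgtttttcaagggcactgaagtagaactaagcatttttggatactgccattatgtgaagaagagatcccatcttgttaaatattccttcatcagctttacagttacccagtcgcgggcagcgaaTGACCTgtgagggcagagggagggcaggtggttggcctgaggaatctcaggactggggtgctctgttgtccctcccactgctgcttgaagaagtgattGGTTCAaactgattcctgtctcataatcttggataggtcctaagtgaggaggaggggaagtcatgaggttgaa
Slc4a2 second window: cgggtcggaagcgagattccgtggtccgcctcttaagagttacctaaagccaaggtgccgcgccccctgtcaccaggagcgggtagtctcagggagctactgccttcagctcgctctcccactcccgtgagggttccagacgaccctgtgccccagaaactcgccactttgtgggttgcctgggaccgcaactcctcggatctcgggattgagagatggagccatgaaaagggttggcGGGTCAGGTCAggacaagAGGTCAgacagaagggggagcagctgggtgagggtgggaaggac
The first Slc4a4 window had 80.0% G and C, 50 CpG dinucleotides and no half-site. The second had 48.3% G and C, 3 CpG dinucleotides and 2 half-sites, 1 on each strand. A window of Slc4a2 at chr5:24425594-24425893 (plus strand), printed because it held the most half-sites among the measured members, had 3, of which the first and second overlap. The other 4 windows of measured members had none. At least 1 half-site stood in 43.7% of all 32851 promoter windows, so that its presence is common. No window of a measured member held half-sites in direct repeat spaced by 1, 2 or 5 bases (DR1, DR2 and DR5), arrangements found in 0.222%, 0.268% and 0.0974% of all windows. These matches describe letters in short windows, and binding was not measured.

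Slc4a4 was lower with either inhibitor than with vehicle, and was higher when tRA was added to the inhibitor. In the AGN193109 experiment, Slc4a4 (cluster 10523021) had levels of 9.90, 9.52 and 9.60 with AGN193109, 10.26, 10.29 and 10.22 with AGN193109+tRA, and 10.64, 10.35 and 10.25 with vehicle, in replicates 1 to 3. All 3 AGN193109 arrays lay below the 6 other arrays, whereas the AGN193109+tRA arrays lay within the range of the vehicle arrays except for 1 just under it. In the DEAB experiment, the levels were 9.90, 9.83 and 9.79 with DEAB, 10.71, 10.54 and 10.47 with DEAB+tRA, and 10.44, 10.30 and 10.15 with vehicle. Here the 3 groups did not overlap at all: DEAB was lowest, vehicle stood between, and DEAB+tRA was highest, with replicate 1 the highest array of each group.

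**Figure D1:**
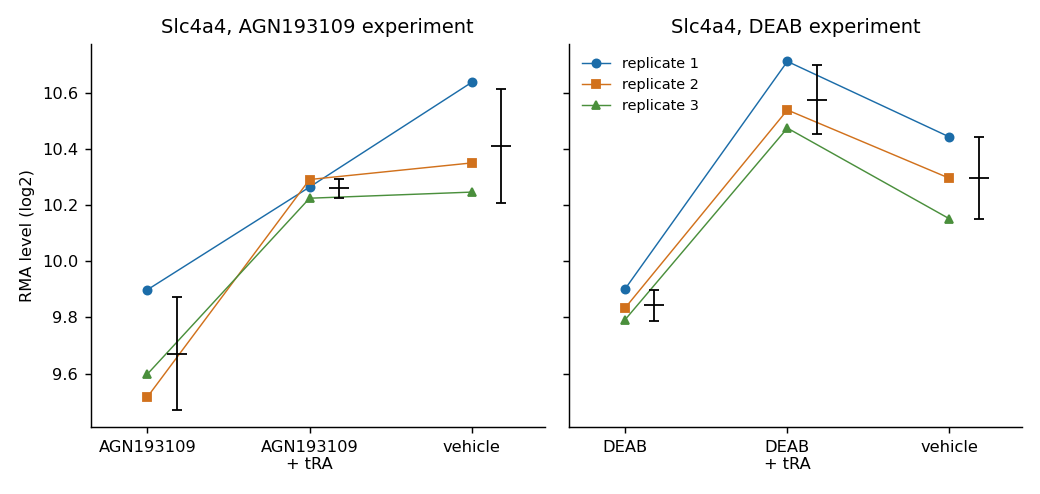
Slc4a4 level (log2, RMA) in each array of the AGN193109 experiment (left) and the DEAB experiment (right); lines join arrays with the same replicate number, and black bars give the group mean ± SD (n = 3). The 3 arrays with AGN193109 (9.52 to 9.90) and the 3 with DEAB (9.79 to 9.90) sit below all other arrays of their experiment; levels are not compared across the experiments.

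With AGN193109, Slc4a4 averaged 9.67 ± 0.20, against 10.41 ± 0.20 with vehicle (SD, n = 3 each). The difference was -0.74 on the log2 scale (standard error 0.12), a ratio of 0.599. It was negative in 3 of 3 same-number pairs of arrays, between -0.83 and -0.65. With AGN193109+tRA the mean was 10.26 ± 0.034 (SD, n = 3), which was 0.59 above AGN193109 alone (standard error 0.12, ratio 1.5). AGN193109+tRA minus vehicle was -0.15, with overlapping groups and same-number differences between -0.37 and -0.02.

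In the DEAB experiment, the mean Slc4a4 level was 9.84 ± 0.055 with DEAB, 10.57 ± 0.12 with DEAB+tRA and 10.30 ± 0.15 with vehicle (SD, n = 3 each). DEAB minus vehicle was -0.45 (standard error 0.085, ratio 0.730), with same-number differences between -0.54 and -0.36. DEAB+tRA minus DEAB was 0.73 (standard error 0.085, ratio 1.66), with same-number differences between 0.68 and 0.81. Unlike AGN193109+tRA, DEAB+tRA stood above its vehicle, by 0.28 (standard error 0.085), in 3 of 3 same-number pairs and with no overlap. The AGN193109 effect minus the DEAB effect, each relative to its own vehicle, was -0.29 (standard error 0.16), and was not called in the fit of all 18 arrays.

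Whole-array context for these differences was taken from limma fits over all 23410 clusters with a symbol, where a cluster was called at a Benjamini-Hochberg adjusted p under 0.05. The fit by group, without pairing, called 1 of the 7 member clusters in 1 of the 6 comparisons: Slc4a4 was called as higher in DEAB+tRA than in DEAB, where 0.325% of all clusters were called. It was not called there without DEAB replicate 2 (difference 0.73), DEAB+tRA replicate 2 (0.75) or DEAB replicate 3 (0.71). In AGN193109 minus vehicle, 0 members were called against 0.0683% of all clusters, in AGN193109+tRA minus AGN193109 0 against 0.0214%, and in DEAB minus vehicle 0 against 0.0342%. AGN193109+tRA minus vehicle, DEAB+tRA minus vehicle and the AGN193109 effect minus the DEAB effect had no call on the whole array (0% each), with 418, 1403 and 539 clusters at an unadjusted limma p under 0.05. Since the members were chosen on these contrasts, nothing is read from the counts.

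With the replicate number as a block, which uses the differences between same-number arrays, Slc4a4 was called in 3 comparisons: as lower in AGN193109 minus vehicle (0.457% of all clusters called), as lower in DEAB minus vehicle (0.303%), and as higher in DEAB+tRA minus DEAB (1.50%). No member was called with the block in AGN193109+tRA minus AGN193109 (0.0812%), AGN193109+tRA minus vehicle (0.00427%), DEAB+tRA minus vehicle (0.0214%) or the AGN193109 effect minus the DEAB effect (0.00427%). The standard error of the Slc4a4 difference between AGN193109 and vehicle was 0.092 with the block. When each of the 9 arrays was left out in turn, the blocked call of Slc4a4 was kept in 9 of 9 fits in DEAB+tRA minus DEAB. It was kept in 3 of 9 in AGN193109 minus vehicle, those without an AGN193109+tRA array, and in 4 of 9 in DEAB minus vehicle, those without a DEAB+tRA array or without DEAB replicate 3. The differences in these fits stayed between -0.80 and -0.67 with AGN193109 and between -0.49 and -0.41 with DEAB. By size, Slc4a4 ranked 59 from the lowest of 23410 differences in AGN193109 minus vehicle and 71 from the lowest in DEAB minus vehicle. It ranked 37 from the highest in AGN193109+tRA minus AGN193109 and 41 from the highest in DEAB+tRA minus DEAB. Slc4a4 was selected on results from these same arrays, so its calls, the fits that kept them and its ranks describe it and are not evidence. The comparisons of an experiment also share arrays.

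Slc4a11 showed smaller differences in the same directions as Slc4a4. Its levels (cluster 10487722) were 11.97, 12.21 and 11.86 with AGN193109, 12.06, 12.45 and 12.27 with AGN193109+tRA, and 12.21, 12.56 and 12.16 with vehicle. The AGN193109 arrays overlapped the vehicle arrays, yet each was below the vehicle array of its own number, and replicate 2 was the highest in every group. The difference between AGN193109 and vehicle was -0.30 (standard error 0.14), and that between AGN193109+tRA and AGN193109 was 0.24, in the same direction in 3 of 3 same-number pairs each. In the DEAB experiment the levels were 13.03, 13.02 and 12.92 with DEAB, 13.25, 13.17 and 13.07 with DEAB+tRA, and 13.26, 13.11 and 13.01 with vehicle. DEAB minus vehicle was -0.14 and DEAB+tRA minus DEAB was 0.17. All DEAB+tRA arrays were above all DEAB arrays.

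Slc4a2 behaved differently from both. With AGN193109 it averaged 10.34 ± 0.038, with AGN193109+tRA 10.20 ± 0.13, and with vehicle 10.34 ± 0.13 (SD, n = 3 each), so that AGN193109 alone left a difference of -0.0016 (standard error 0.091). The AGN193109+tRA arrays were all below the AGN193109 arrays, at a difference of -0.14, and below the vehicle array of the same number in 3 of 3 pairs. DEAB left a difference of 0.04, again under its standard error of 0.12. DEAB+tRA minus DEAB was -0.20 and DEAB+tRA minus vehicle -0.16, negative in 3 of 3 same-number pairs each, with groups that overlapped and replicate 1 the lowest array of each. None of these Slc4a2 differences was called.

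The brighter Slc4a3 cluster (10347697) had 9.37, 9.31 and 9.10 with AGN193109, 9.23, 9.31 and 9.05 with AGN193109+tRA, and 9.51, 9.54 and 9.26 with vehicle. Replicate 3 was the lowest in each group, and the groups overlapped. AGN193109 minus vehicle was -0.18 (standard error 0.11) and AGN193109+tRA minus vehicle was -0.24, both negative in 3 of 3 pairs, so that for this gene the addition of tRA did not bring the mean nearer to vehicle. In the DEAB experiment the same cluster averaged 9.84 ± 0.15 with DEAB, 9.83 ± 0.094 with DEAB+tRA and 9.85 ± 0.16 with vehicle (SD, n = 3 each). The other Slc4a3 cluster (10347724) was dim, with means of 5.58 ± 0.036 with AGN193109, 5.72 ± 0.30 with AGN193109+tRA and 5.57 ± 0.27 with vehicle (SD, n = 3 each). The Slc4a3 clusters did not share a direction in AGN193109+tRA minus vehicle, where the dim one had a difference of 0.14.

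Slc4a8 (cluster 10426924) varied little between arrays. Its mean was 7.98 ± 0.041 with AGN193109, 7.84 ± 0.074 with AGN193109+tRA and 7.97 ± 0.032 with vehicle (SD, n = 3 each). The 3 AGN193109+tRA arrays lay below all 6 others, at differences of -0.14 from AGN193109 and -0.13 from vehicle (standard error 0.068 each). No such gap was seen with DEAB+tRA, which averaged 8.31 ± 0.031, against 8.39 ± 0.076 with DEAB and 8.31 ± 0.037 with vehicle (SD, n = 3 each). DEAB+tRA minus DEAB was -0.07, negative in 3 of 3 same-number pairs though the groups overlapped. AGN193109+tRA minus AGN193109 was also negative in 3 of 3. Slc4a5 (cluster 10539393), also dim, averaged 6.41 ± 0.10 with AGN193109 and 6.33 ± 0.052 with vehicle, and 6.62 ± 0.046 with DEAB and 6.54 ± 0.028 with vehicle (SD, n = 3 each), and its groups overlapped in these comparisons. The dim Slc4a3 cluster and Slc4a5 fell under the 30th percentile of cluster means in both experiments, and the other 5 member clusters passed it.

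**Figure D2:**
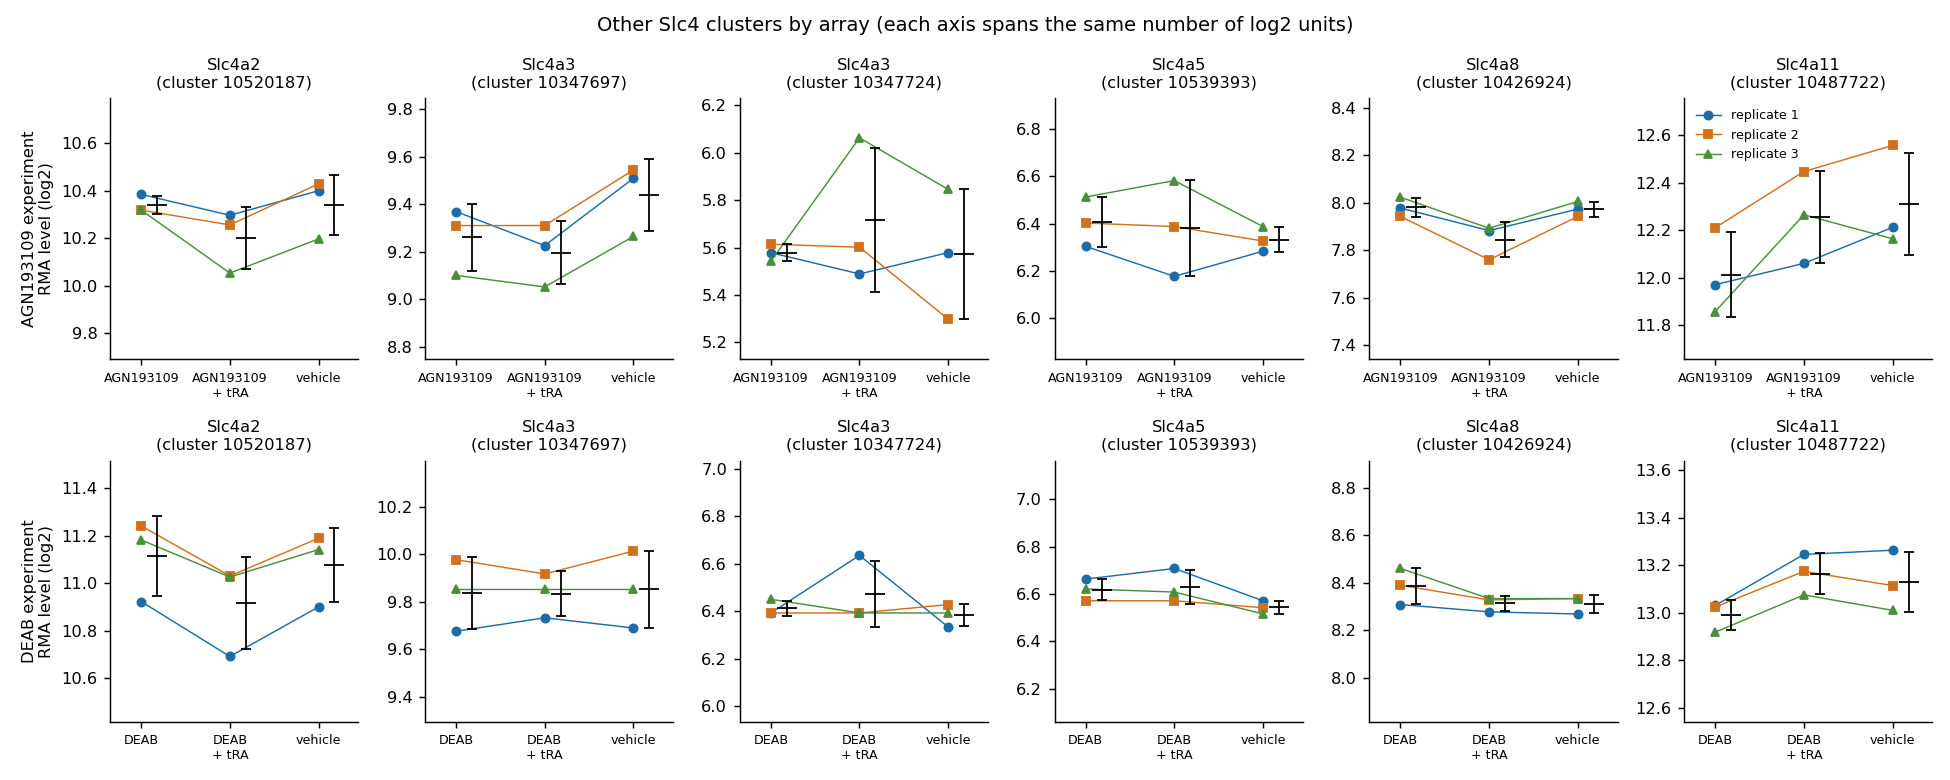
Levels (log2, RMA) of the 6 other member clusters by array, in the AGN193109 experiment (top) and the DEAB experiment (bottom); lines join arrays with the same replicate number and black bars give the group mean ± SD (n = 3). Slc4a11 is lower with AGN193109 in each line, Slc4a8 is lowest with AGN193109+tRA, and the dim Slc4a3 cluster 10347724 spreads widest with AGN193109+tRA and with vehicle in the first experiment.

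Without overlap between the groups, 1 member cluster (Slc4a4) was lower in AGN193109 than in vehicle, as were 2.36% of all clusters. Between AGN193109+tRA and AGN193109, 1 was higher (Slc4a4) and 2 were lower (Slc4a2 and Slc4a8), beside 1.28% and 2.87% of all clusters. In AGN193109+tRA minus vehicle, 1 was lower (Slc4a8), beside 2.43%. In the DEAB experiment, 1 was lower in DEAB than in vehicle (Slc4a4, 3.61% of all), 2 were higher in DEAB+tRA than in DEAB (Slc4a4 and Slc4a11, 4.67%), and 1 was higher in DEAB+tRA than in vehicle (Slc4a4, 4.74%). The median difference over the 7 clusters was -0.0016 in AGN193109 minus vehicle, beside 0.0153 over all clusters, and 0.0271 in DEAB minus vehicle, beside -0.000133. Neither family median was close in size to the difference of Slc4a4.

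**Figure D3:**
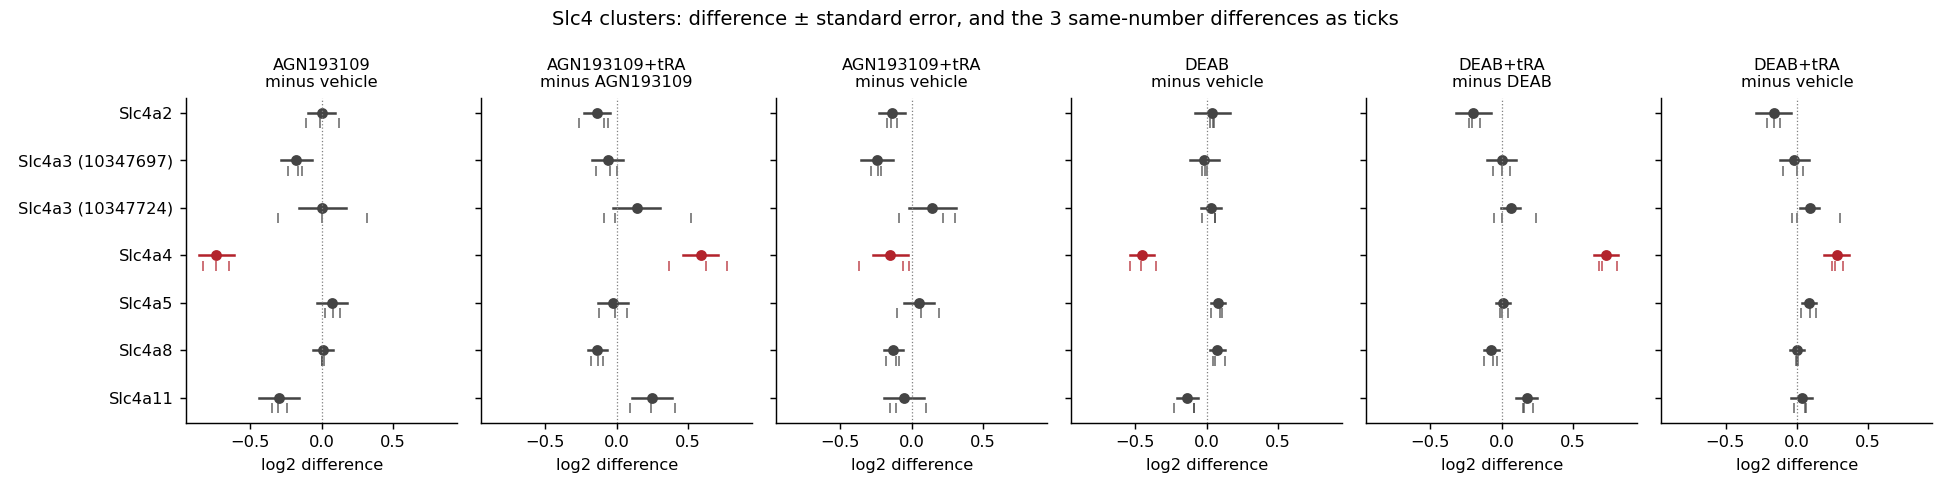
Log2 difference of each member cluster in the 6 comparisons (dots, with bars of 1 standard error from the limma fit by group), with the 3 differences between same-number arrays as ticks; Slc4a4 is in red. Slc4a4 stands at -0.74 and -0.45 with the inhibitors and at 0.59 and 0.73 on adding tRA, and the next in size is Slc4a11 with AGN193109, at -0.30.

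Other genes of acid-base handling were examined in lists compiled with earlier results of these arrays known. The genes named from each list were picked by their small unadjusted p in the inhibitor comparisons. Their p-values, Car2 and Slc26a11 included, therefore describe selected genes and are not evidence. Of 51 listed genes, 49 had a cluster. The fit by group called 1 of them (Car5b), in DEAB+tRA minus DEAB, where it called 0.325% of all clusters, and 0 in the other 5 comparisons. With the replicate block, Car2, Car5b and Slc26a11 were called in DEAB+tRA minus DEAB, where that fit called 1.50% of all clusters. Car5b, a mitochondrial carbonic anhydrase, fell to 11.39 ± 0.093 with DEAB+tRA, against 11.92 ± 0.061 with DEAB (SD, n = 3 each), a difference of -0.53 (standard error 0.069, limma adjusted p = 0.02, and 0.00139 with the replicate block). The call by group was kept in 2 of 9 fits that each left out 1 array, those without vehicle replicate 1 or 3, while the difference stayed between -0.56 and -0.47. The study had already listed Car5b from these same arrays, among the genes most raised by both inhibitors. The p-values given for it therefore describe a selected gene and are not evidence. Its direction was opposite to that of Slc4a4. Car5b was 11.58 ± 0.28 with AGN193109, 11.18 ± 0.23 with AGN193109+tRA and 11.14 ± 0.35 with vehicle (SD, n = 3 each), and the difference of 0.45 between AGN193109 and vehicle was not called (limma adjusted p = 1, and 0.0612 with the block).

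Among the 16 carbonic anhydrases, which interconvert carbon dioxide and bicarbonate, Car2 had the largest difference in size between AGN193109 and vehicle. This cytosolic enzyme averaged 8.26 ± 0.56 with AGN193109, 8.99 ± 0.53 with AGN193109+tRA and 9.16 ± 0.32 with vehicle (SD, n = 3 each). The spread within groups was wide, and AGN193109 minus vehicle, at -0.90 (standard error 0.32), did not pass the test (limma adjusted p = 1, and 0.122 with the block). In the DEAB experiment it averaged 9.04 ± 0.33 with DEAB, 9.38 ± 0.23 with DEAB+tRA and 9.39 ± 0.21 with vehicle (SD, n = 3 each). DEAB+tRA minus DEAB, at 0.34, passed only with the block (limma adjusted p = 0.0447, against 0.85 without), and held in 1 of 9 fits that each left out 1 array. The list as a whole had 0 genes called in AGN193109 minus vehicle and 0 in DEAB minus vehicle by either limma fit. In the fit by group, 2 had an unadjusted p under 0.05 in each. Over all clusters, 3.30% and 4.05% had an unadjusted p under 0.05 in these comparisons by that same fit.

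The 11 Slc26 genes encode anion exchangers, several of which carry bicarbonate. Slc26a11 averaged 8.43 ± 0.11 with DEAB+tRA, against 8.68 ± 0.12 with DEAB (SD, n = 3 each), and this difference of -0.25 passed only with the block (limma adjusted p = 0.0336, against 0.696 without). It passed in 0 of 9 blocked fits that each left out 1 array. Slc26a9 had differences of -0.27 with AGN193109 and -0.37 with DEAB relative to vehicle, both at a limma adjusted p = 1. Its DEAB+tRA minus DEAB was 0.46, the highest of the list there, and was not called (limma adjusted p = 0.535, and 0.206 with the block). By the limma fit by group, the Slc26 list had 1 gene at an unadjusted p under 0.05 in each inhibitor comparison, beside 3.30% and 4.05% of all clusters. In DEAB+tRA minus DEAB it had 2, beside 6.39%. Of the 9 measured sodium-proton exchangers and their scaffolds, 0 were called in any comparison by either limma fit. Their differences in AGN193109 minus vehicle lay between -0.0855 and 0.107. The fit by group gave 1 of them an unadjusted p under 0.05 in DEAB+tRA minus DEAB, beside 6.39% of all clusters there. Of 10 genes that regulate sodium-bicarbonate cotransport, 0 were called by either limma fit. The fit by group gave 1 of them an unadjusted p under 0.05 in each inhibitor comparison, beside the 3.30% and 4.05% of all clusters. Ahcyl2, a relative of the IRBIT protein that binds NBCe1, had a difference of 0.27 between AGN193109 and vehicle, and the kinase Wnk4 had -0.40 (limma adjusted p = 1 each, and 0.366 and 0.092 with the block). The 3 other Slc4 genes on the array, Slc4a1, Slc4a9 and Slc4a10, had differences between -0.14 and 0.03 in AGN193109 minus vehicle and between 0.03 and 0.15 in DEAB minus vehicle. None of the 3 was called, and none had an unadjusted p under 0.05 in the limma fit by group.

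**Figure D4:**
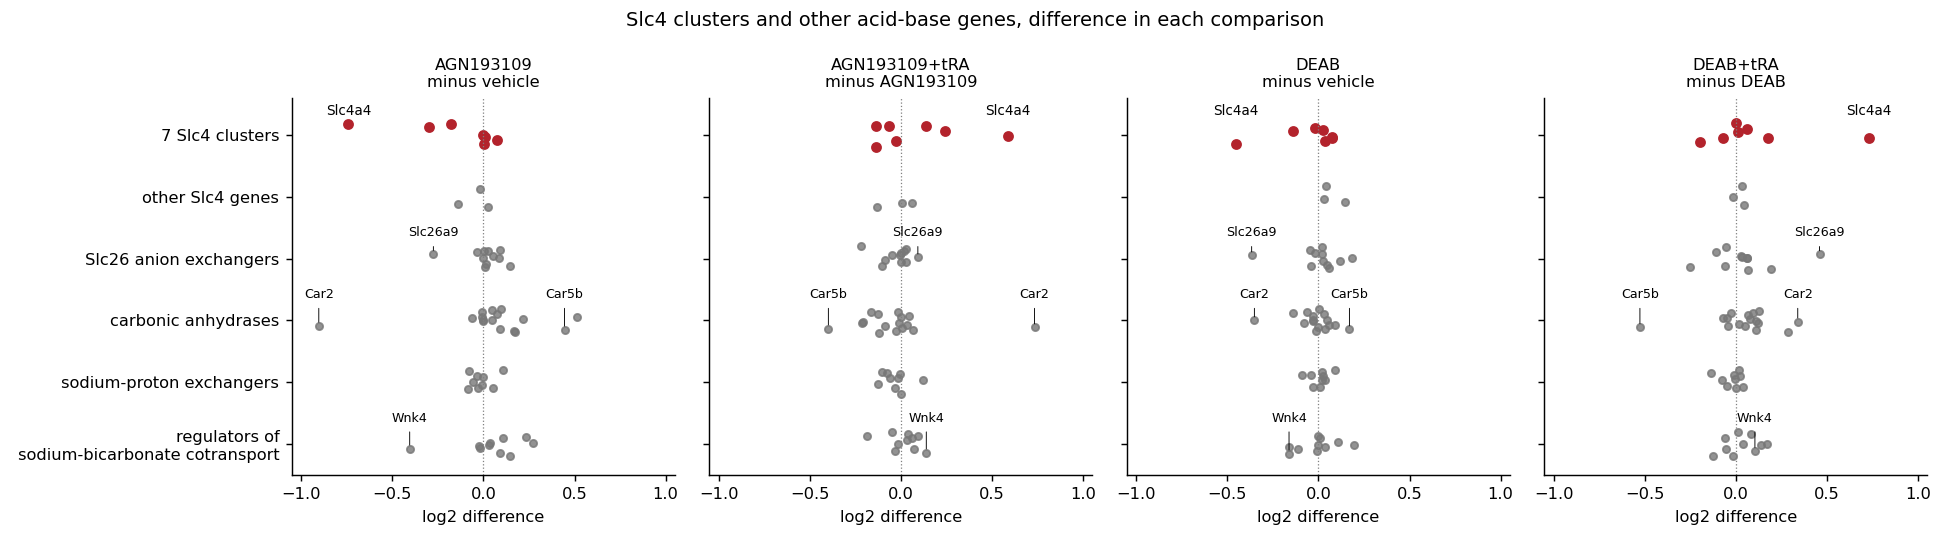
Log2 differences of the 7 Slc4 member clusters (red) and of 49 other acid-base genes in 5 lists (grey) in 4 comparisons; 1 dot is 1 cluster, with vertical scatter only to separate dots. Slc4a4 lies outside the other Slc4 clusters in each panel, and Car2 and Car5b lie on opposite sides of 0, Car2 on the side of Slc4a4.

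The clusters whose values were most like those of Slc4a4 were sought over the 18 arrays, after each cluster was centred on the mean of its experiment. Of 21788 clusters with 1 symbol, the 8 with the highest Pearson r were Npr3 (0.958), Dsg2 (0.957), Smad3 (0.953), Sorcs2 (0.948), Wnt9a (0.937), Egfr (0.937), Ablim1 (0.936) and Tspan18 (0.935). These r values describe arrays that share treatments and cultures. Npr3 encodes the clearance receptor of natriuretic peptides, Dsg2 a desmosomal cadherin, Smad3 a mediator of TGF-beta signals, Sorcs2 a sortilin-family receptor, Wnt9a a Wnt ligand, Egfr the EGF receptor, Ablim1 an actin-binding protein and Tspan18 a tetraspanin. When centred instead on replicate number within an experiment, which removes differences between cultures, only 2 of the 8 (Dsg2 and Ablim1) stayed among the first 8.

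Dsg2 was close to Slc4a4 in size as well. Its differences were -0.76 with AGN193109 and -0.44 with DEAB relative to vehicle, and 0.53 and 0.60 on adding tRA. Npr3 had wider differences, with -1.15 in AGN193109 minus vehicle and 1.60 in DEAB+tRA minus DEAB, and Egfr narrower ones, with -0.32 and 0.25. Among the members themselves, Slc4a11 had the highest r with Slc4a4 (0.61, rank 271), which was 0.92 (rank 67) when centred on replicate number. Slc4a2 and Slc4a8 had negative r values of -0.37 and -0.47, Slc4a5 had -0.21, and the Slc4a3 clusters had 0.19 and 0.10.

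**Figure D5:**
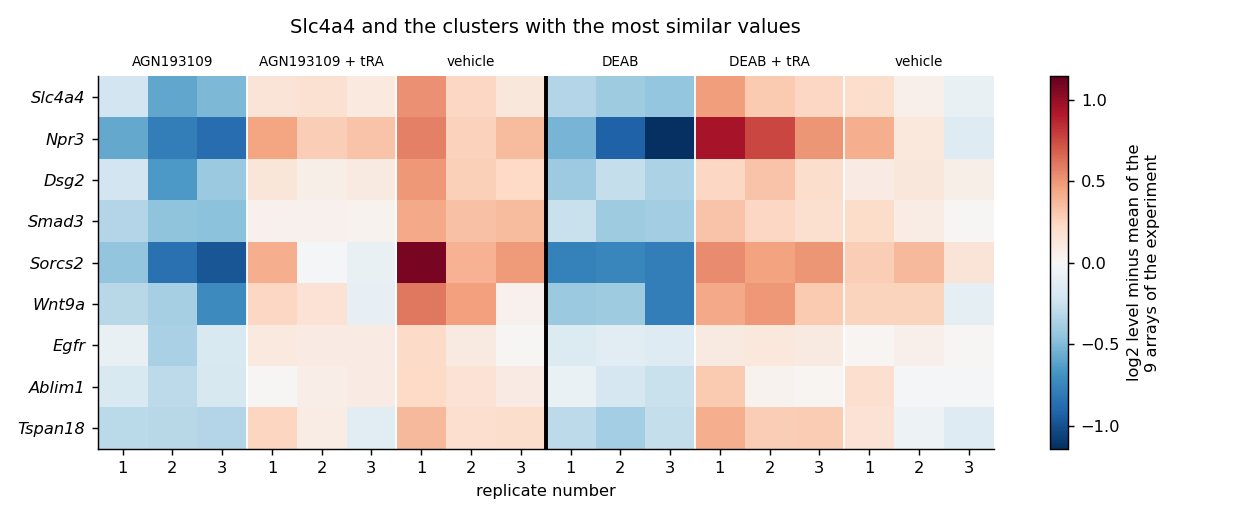
Log2 level minus the mean of the 9 arrays of the experiment, for Slc4a4 and the 8 clusters with the highest Pearson r to it (rows, in order of r), in all 18 arrays (columns, by group and replicate number). The AGN193109 and DEAB arrays are blue (below the mean) in every row, and Npr3 and Sorcs2 span a wider range than Slc4a4.

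The median of each array lay from 7.23 to 7.33 in the first experiment and from 7.48 to 7.51 in the second, and no pair of arrays was identical. All 4 epithelial markers (Cdh1, Epcam, Krt8 and Krt18) were above the median cluster in both experiments. Of 10 principal-cell markers, 7 were above the 30th percentile in each, among them the water channel Aqp2. Aqp4 and the sodium channel subunits Scnn1b and Scnn1g were below the 30th percentile in both experiments. Only 2 and 1 of the 10 were above the median, with Aqp2 above it in the AGN193109 experiment only. The proximal tubule is where Slc4a4 is best known, and of its 6 markers 6 and 5 were above the 30th percentile but 0 above the median. Of 9 intercalated-cell markers, 5 and 4 were above the 30th percentile and 0 above the median. Of 4 markers of the thick ascending limb and distal tubule, 1 and 2 were above the 30th percentile and 0 above the median, and of 5 measured fibroblast and blood markers, 3 and 2 were above the 30th percentile and 1, the collagen gene Col1a1, was above the median in both experiments. No gene of any marker list was called in any of the 6 comparisons by either limma fit, and their part in the Slc4a4 differences was not tested.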

How the data were processed

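RNA of mIMCD-3 cells was hybridised to 18 Mouse Gene 1.0 ST arrays, in 2 experiments of 3 groups with 3 arrays each, assigned by their titles or, for the vehicle arrays, whose titles do not name the experiment, by the form of the short name in their descriptions. The authors normalised the arrays with RMA in Affymetrix Expression Console and deposited log2 values, which were used unchanged. The sources used here give no version of it. Arrays carry no depth, and precision is limited by their number. The members and gene lists were chosen with earlier results of these data known.

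Clusters were named by the platform annotation: 21789 with 1 symbol, 1621 with several and 12146 without, the last being tested only in an alternative. Differences came from limma (3.58.1, under R 4.3.3) fitted to each experiment by group, with Benjamini-Hochberg adjustment over 23410 clusters. A second fit had the replicate number as a block. The numbers were taken as pairing the arrays, because residuals of same-number arrays correlated at 0.198 to 0.645 (AGN193109) and 0.179 to 0.614 (DEAB) in all 9 pairs of each experiment. For different numbers the ranges were -0.575 to 0.205 and -0.511 to 0.312. Residuals were taken from group means and cancel out within a group, so positive same-number values push the others towards negative ones. The ranges for different numbers are therefore not separate evidence of pairing. Simulated data with independent arrays were used to test only the fit by group, for inhibitor minus vehicle. The block, the difference between inhibitor effects, and the likeness and promoter searches were not tested in that way. Named genes were all member clusters, the 8 clusters most like Slc4a4, and from each acid-base list up to 3 genes with the smallest unadjusted p in either inhibitor comparison. The brightest cluster was used for a gene outside the members. Alternatives were renormalisation, median centring, a filter under the 30th percentile, all clusters, trended robust variances, other sets of arrays in the fit, and leaving out each array. Promoters came from the RefSeq table of GRCm38.p6 (32851 windows, 27025 genes). Figures used matplotlib 3.10.9.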

Additional observations from a re-analysis of the deposited data

Results flagged for a closer look

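The mean level of Slc4a4 with inhibitor and tRA stood on opposite sides of vehicle in the experiments. Because Slc4a4 was selected on these arrays, the values are a description. AGN193109+tRA minus vehicle was -0.15 (standard error 0.12, 95% interval -0.43 to 0.12). Its groups overlapped, and the same-number differences were -0.37, -0.06 and -0.02. DEAB+tRA minus vehicle was 0.28 (standard error 0.085), positive in 3 of 3 same-number pairs and without overlap. Of all clusters, 4.74% were likewise higher there without overlap. Neither Slc4a4 difference from vehicle was called by either limma fit. The AGN193109 experiment minus the DEAB experiment was -0.43 on the log2 scale. This difference was not tested, and the tRA doses differed (0.2 µM beside AGN193109 and 0.01 µM beside DEAB).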

How the results depend on the processing

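The number of member clusters called changed with the fit in 3 comparisons, in each case through Slc4a4 alone. In AGN193109 minus vehicle it was 0 by group, 1 with the replicate block and 1 with all 18 arrays in 1 fit, while the calls on the whole array were 16, 107 and 54. In DEAB minus vehicle it was 0 by group and 1 with the replicate block, with 8 and 71 calls on the whole array. In DEAB+tRA minus DEAB it was 1 by group and 0 to 1 when each array was left out in turn, with 76 calls by group, 351 with the block and 22 to 64 with an array left out. Testing clusters without a symbol too gave 8, 0 and 45 whole-array calls in AGN193109 minus vehicle, AGN193109+tRA minus AGN193109 and DEAB+tRA minus DEAB, and fitting only the 6 arrays compared gave 2, 0 and 25. AGN193109+tRA minus AGN193109 had 5 calls by group, 19 with the block and 9 with all 18 arrays. DEAB minus vehicle had 13 calls with dim clusters left out, and DEAB+tRA minus DEAB had 123 with trended robust variances. The fits that left out an array under the block, and those of Car2, Car5b and Slc26a11, were added after seeing the data. The block changed no other call of a member. Of 42 member differences, 25 kept their sign under every alternative run, all 6 of Slc4a4 among them. Of 378 values, 0 moved by more than 1 SD. Leaving out 1 of 3 arrays cannot move a difference that far, and the block leaves it unchanged, so that count does not measure stability. Neither renormalisation shifted the median of all clusters by more than 0.03. Of the 8 clusters most like Slc4a4, 2 stayed among the first 8 under the other centring. With 3 arrays a group, the median standard error of a cluster was 0.104 for AGN193109 and 0.0699 for DEAB, and the dim Slc4a3 cluster and Slc4a5 are limited further by low signal.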
